A study of Caenorhabditis elegans and Caenorhabditis briggsae
Caenorhabditis elegans with 146 samples.

Results

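The DREAM and synMuv B repressors described here are 10 genes of *Caenorhabditis elegans*: *lin-35*, *efl-1*, *dpl-1*, *lin-9*, *lin-37*, *lin-52*, *lin-53*, *lin-54*, *hpl-2* and *lin-15B*. They were chosen by gene name, not by a measured value, and all 10 were found among the 20411 genes of the expression table. The study measured mRNA by sequencing whole embryos and larvae to follow X chromosome dosage compensation, the process by which XX hermaphrodites lower expression from both X chromosomes towards that of XO males. Each library was made from pooled collections of worms, and 77 libraries in 23 groups gave the levels below.

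Hermaphrodite samples were from the wild type strain N2 and mixed sex samples from strain BS553, *fog-2(oz40)*, whose XX animals make no sperm and must mate with males, so sex and strain cannot be told apart. Both were collected as early embryos with fewer than 40 cells, comma stage embryos aged for 4 hours, L1 larvae fed for 6 hours and L3 larvae fed for 24 hours, and the same limits held for the mutants at these stages where the labels give one. Strain MK4 carries *dpy-27(y56)*, a mutation of the condensin subunit of the dosage compensation complex, over a balancer. Its homozygous embryos and L1 larvae came from mothers without the balancer, so that no wild type *dpy-27* came from the mother or the embryo, and heterozygous early embryos came from the same strain. In a separate experiment N2 worms were fed bacteria making *dpy-27* double-stranded RNA (*dpy-27* RNAi) or carrying the empty vector, and collected as mixed stage embryos and L3 larvae. CB428, *dpy-21(e428)*, is mutant for a member of the complex outside the condensin core and gave early embryos, mixed embryos and L3 larvae. MT14911, *set-4(n4600)*, lacks the methyltransferase that turns singly methylated histone H4 into more highly methylated forms. It was collected as L3 larvae and as mixed embryos. For this mutant and *dpy-21(e428)*, the second N2 collection was chosen here as the L3 control. The labels do not name a control for either mutant. SS1075, *set-1(tm1821)* over a fluorescent balancer, is mutant for the enzyme that adds the first methyl group, and its homozygous and heterozygous larvae, labelled L2 and fed for 24 hours, were picked by presence or absence of fluorescence. In 6 further libraries, L1 larvae of *set-4(n4600)* or N2 were mixed with L1 larvae of *C. briggsae* strain AF16 as a spike-in.

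DREAM is a repressor complex built from an E2F-DP dimer, a pocket protein and the MuvB core. In *C. elegans* the pocket protein is LIN-35, a relative of the retinoblastoma tumour suppressor, EFL-1 is the E2F protein and DPL-1 its DP partner. The MuvB core holds LIN-9, LIN-37, LIN-52, LIN-54, which binds DNA, and LIN-53, a histone-binding protein of the RbAp48 family that also belongs to other chromatin complexes. HPL-2 is a relative of heterochromatin protein HP1, and LIN-15B is a nuclear protein with a THAP domain. Loss of synMuv B genes together with a gene of the synMuv A class gives worms with several vulvae, and loss of many of them lets germline genes be expressed in somatic cells.

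Expression was deposited as FPKM, fragments per kilobase of transcript corrected for library size, a level per length that can be set side by side between genes. Levels are given as scaled FPKM, the deposited value divided by a single factor for each library. These factors ran from 0.627 to 1.515. Differences are log2 fold changes on the log2(FPKM + 0.1) scale, which understates the change of weakly expressed genes. They were tested with limma over all genes above a mean of 1 FPKM, and a gene was called at an adjusted p under 0.05. In whole animals, fewer cells expressing a gene and less RNA per cell cannot be told apart.

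Several libraries bear on what follows. N2 L1 replicate 3 and mixed sex L1 replicate 1 held identical values for 20376 of 20376 genes, so this library was left out and each group kept 2. The level of *set-4* went against the label of 2 mixed embryo libraries: it was 0.186 scaled FPKM in the library labelled *dpy-21(e428)* replicate 3, against 33.2 to 42.9 in the other 3 of that label, and 36.3 in the library labelled *set-4(n4600)* replicate 2, against 0.040 to 0.103 in the other 3 of that label. *dpy-27* was at 17.2 to 31.2 in RNAi and 49.3 to 104 in vector mixed embryos, but in L3 larvae it overlapped, with 1 RNAi library at 128 and the others at 18.3 to 23.5, against 21 to 30.2 with the vector. In *dpy-27(y56)* the *dpy-27* transcript was still present, at 28.4, 28.5 and 42.4 in early embryos against 48.1 to 51.4 in N2, and at 28.3 to 35.3 in L1 larvae against 39.9 and 44.6 in N2. Relative depth, estimated from the steps between low FPKM values, ran from 0.193 to 1.35 times that of N2 early embryo replicate 1. Stage markers differed widely between the N2 stages. The summed level of 6 maternal transcripts was 2497 to 3718 scaled FPKM in early embryos, 35.5 to 106 in comma embryos, 14.1 to 17.3 in L1 larvae and 37.3 to 38.7 in L3 larvae. The summed level of 5 larval cuticle genes had no single direction with age, at 25.2 to 49.4 in early embryos, 5365 to 8889 in comma embryos, 61.8 to 70.9 in L1 larvae and 1854 to 8355 in L3 larvae.

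All 10 repressor genes were expressed in every group, and *lin-53* and *hpl-2* stood above the other 8 throughout. *lin-53* had the highest group mean of the 10 in 11 groups and *hpl-2* in 12, and each was second wherever the other was first. Group means ran from 7.01 scaled FPKM for *efl-1* in *set-1(tm1821)* homozygotes to 604 for *lin-53* in N2 early embryos. The DREAM genes were not present in equal amounts. In N2 early embryos *lin-53* averaged 604 ± 20.1 scaled FPKM, while the other MuvB genes averaged between 48.7 ± 1.75 (*lin-9*) and 129 ± 18.6 (*lin-52*), with *lin-35* at 68.6 ± 5.21, *efl-1* at 106 ± 11.2 and *dpl-1* at 76.1 ± 7.69 (SD, n = 3). *dpl-1* was among the lowest 2 of the 10 in 17 of the 23 groups.

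Embryos held more of these RNAs than larvae. For 9 of the 10 genes the lowest mean among the 11 embryo groups was above the highest mean among the 12 larval groups; *lin-53*, for example, was at 119 scaled FPKM or more in embryos and at 92.1 or less in larvae. The exception was *lin-35*, whose lowest embryo mean (14.1, N2 comma embryos) was below its highest larval mean (19.9, mixed sex L1 larvae). The share of all genes whose embryo and larval group means separate was not counted.

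The pocket protein gene *lin-35* had 66.5, 64.7 and 74.5 scaled FPKM in N2 early embryos, 15.6, 17.8 and 8.90 in comma embryos, 16.7 and 13.5 in L1 larvae, and 11.4, 12.2 and 9.61 in L3 larvae. The E2F gene *efl-1* had 105, 95.9 and 118 in early embryos, 20.1, 20.0 and 14.1 in comma embryos, 14.9 and 19.0 in L1 larvae, and 8.32, 8.95 and 9.27 in L3 larvae. For both, every early embryo library was above every later one, and the comma and L1 libraries overlapped. *lin-53* had 622, 606 and 582 in early embryos, 143, 143 and 71.6 in comma embryos, 84.8 and 74.4 in L1 larvae, and 81.4, 80.1 and 85.0 in L3 larvae. Here too the early libraries stood alone, and the 3 later stages overlapped. *hpl-2* fell least between the embryo stages, with 227, 249 and 278 in early embryos, 149, 138 and 87.8 in comma embryos, 103 and 107 in L1 larvae, and 69.1, 59.4 and 64.8 in L3 larvae. *lin-15B*, the THAP domain gene, had 96.4, 99.9 and 93.6 in early embryos, 24.8, 32.8 and 27.4 in comma embryos, 14.2 and 12.6 in L1 larvae, and 9.33, 8.68 and 10.6 in L3 larvae. It was the 1 gene of these 5 whose libraries did not overlap between any pair of stages.

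The other members followed the same course. *lin-37*, of the MuvB core, had 113, 108 and 131 scaled FPKM in early embryos, 42.3, 38.9 and 31.3 in comma embryos, 20.2 and 15.1 in L1 larvae, and 20.9, 21.9 and 16.8 in L3 larvae, so that L1 and L3 overlapped. *dpl-1*, the DP partner, was at 71.4 to 85.0 in early embryos, 10.2 to 15.7 in comma embryos, 7.71 and 15.3 in L1 larvae, and 8.54 to 10.6 in L3 larvae. *lin-52*, of the MuvB core, had the widest L1 spread relative to its level, at 9.42 and 22.2, against 109 to 146 in early embryos. *lin-54*, the DNA-binding MuvB subunit, was at 10.1 to 10.9 in L3 larvae, against 79.5 to 87.7 in early embryos, and *lin-9* at 14.2 to 16.0 in L3 larvae, against 46.7 to 49.9 in early embryos. In N2 the L3 mean as a share of the early embryo mean ran from 8.33% for *efl-1* and 9.89% for *lin-15B* to 25.7% for *hpl-2* and 30.8% for *lin-9*.

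**Figure D1:**
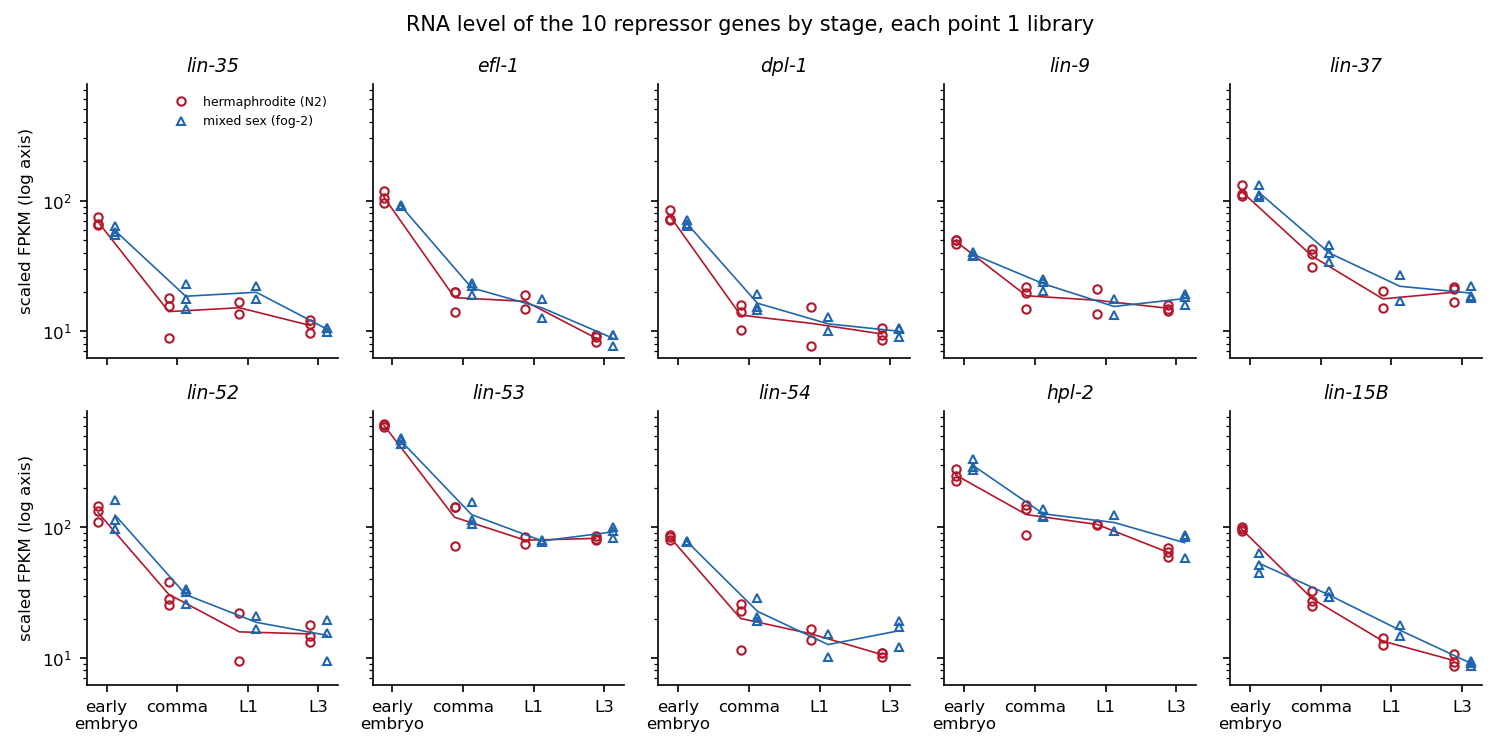
Scaled FPKM of the 10 repressor genes (log axis) by stage, from early embryo to L3 larva, in N2 hermaphrodites (circles) and mixed sex *fog-2(oz40)* samples (triangles); points are libraries and lines join the group means. Early embryos are highest for every gene, and the strains separate for *lin-15B* in early embryos, where N2 is at 93.6 to 99.9 and mixed sex at 44.6 to 63.6.

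Between early and comma embryos all 10 genes fell in both strains. In N2, 84.6% of the genes tested were called in this comparison and 39.3% were called lower, so the members' 10 of 10 stands against a background in which most genes moved. The log2 fold changes ran from −1.06 (*hpl-2*, SE 0.21, limma adjusted p = 0.00195) to −2.59 (*efl-1*, SE 0.18, adjusted p = 7e-06), with a median of −2.14, where the median of all genes was 0.24. In mixed sex embryos, 80.8% of genes were called and 38% were called lower, and the members ran from −0.81 (*lin-9*, SE 0.12) to −2.14 (*efl-1*, SE 0.11), with a median of −1.80 against 0.17 for all genes. The summed maternal markers fell between the same N2 samples, and their part in the members' fall was not tested.

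Genes linked to these repressors fell over the same N2 interval. All 14 S phase and mitotic genes of the DREAM list fell, with a median log2 fold change of −3.57, led by the replicative helicase genes *mcm-2* (−4.85) and *mcm-3* (−4.45). Of 11 other synMuv B genes, 10 fell, with a median of −1.03, led by the SUMO gene *smo-1* (−2.87) and the SUMO-conjugating enzyme gene *ubc-9* (−2.38). All 5 germline genes that synMuv B proteins keep off in the soma fell (median −1.95), as did all 4 chromatin genes whose loss opposes synMuv B phenotypes (median −2.26). The G1 regulators went both ways, with 2 of 7 higher and 4 lower. The cyclin-dependent kinase inhibitor gene *cki-1* rose by 5.04 and the Cdh1 gene *fzr-1* by 1.73, while the cyclin E gene *cye-1* (−2.08) and *cdk-2* (−2.03) fell. *lin-3*, the epidermal growth factor that induces the vulva and is kept off by synMuv genes, fell by 2.93.

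The later steps rested on 2 L1 libraries in each strain. From comma embryo to L1 in N2, 3 members fell, with 24.3% of all genes called lower: *lin-37* by 1.35 (SE 0.27), *lin-52* by 1.32 (SE 0.41) and *lin-15B* by 1.33 (SE 0.23). Leaving out single libraries gave 2 to 5 calls, with 5 calls without N2 comma replicate 3. In mixed sex samples 8 members fell, all but *lin-35* and *hpl-2*, with 29.9% of genes called lower, by 0.69 (*dpl-1* and *efl-1*) to 1.06 (*lin-15B*); without mixed sex L1 replicate 3 only 2 remained called.

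Between L1 and L3 larvae the strains' calls fell on different members, and whether the strains differ was not tested. In N2, 2 members fell, *efl-1* by 0.80 (SE 0.20) and *hpl-2* by 0.59 (SE 0.11), and in mixed sex larvae *lin-35* fell by 0.82 (SE 0.19) and *lin-15B* by 0.73 (SE 0.19). No member was called higher. Of all genes, 13.4% were called lower and 15.9% higher in N2, and 13% lower and 20.5% higher in mixed sex larvae. No call was left without N2 L3 replicate 1 or replicate 2 in N2, or without any 1 of mixed sex L3 replicates 1, 2 and 3 in mixed sex larvae. Of the 5 germline genes that synMuv B proteins keep off in the soma, 4 rose in N2 and 5 in mixed sex larvae, over the interval in which the germline grows.

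Over the 23 groups the members' levels varied together. Pearson's r was taken between group means of log2(FPKM + 0.1), from deposited FPKM without the library scaling. It was 0.947 to 0.994 over the 45 pairs of members, with a median of 0.975, while a member against any other gene gave a median of −0.08. That second median covers genes of every course over the stages, not only those highest in early embryos. The points share stages and libraries, so these values are a description. Among 13616 genes the 5 most like *lin-35* were *zyg-1*, a kinase of centriole duplication (0.991), *orc-2*, an origin recognition subunit (0.990), *tag-315* (0.990), *capg-2*, a condensin II subunit (0.990), and K08F4.1 (0.989). *efl-1* came in place 6 with 0.989 and *dpl-1* in place 44. The other members came in places 167 (*lin-53*) to 934 (*lin-37*), behind many genes outside the set. The 5 most like *lin-15B* were *lin-15A* (0.993), which is transcribed in 1 operon with it, *nrde-3*, an Argonaute of nuclear RNAi (0.992), F16B12.6 (0.992), *sdc-1*, a gene of sex determination and dosage compensation (0.992), and Y77E11A.7 (0.991). By RefSeq's WBcel235 annotation the first 4 of these lie on the X, as does *lin-15B*, the only member on that chromosome. In likeness to *lin-15B* the other members came in places 118 (*lin-52*) to 714 (*lin-37*). Genes outside the set filled every place before the first of these.

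The comparison of hermaphrodites with mixed sex samples sets XX animals against a mixture of XX and XO animals. A difference between the sexes is therefore diluted in it, and the strain differs as well. In early embryos *lin-15B* was the 1 member called, where 6.84% of genes were called higher. In either direction 1491 of 9576 genes were called. A single call among the members therefore does not set them apart from other genes. At an unadjusted p under 0.05 there were 4 members, 3 higher in N2, *lin-15B* among them, and 1 lower. The share of all genes at that level was not counted. *lin-15B* had 96.4, 99.9 and 93.6 scaled FPKM in N2 embryos, against 44.6, 51.4 and 63.6 in mixed sex embryos, with no overlap. The log2 fold change was 0.81 (SE 0.14, adjusted p = 0.0109). Without N2 early replicate 1 its size was 0.82 and the adjusted p 0.0545. *lin-15A*, its operon partner, had 43.6, 45.3 and 42.1 in N2 and 30.5, 34.0 and 40.4 in mixed sex embryos and was not called. The median of X-linked genes was 0.14 and that of autosomal genes −0.02.

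At later stages no member was called between hermaphrodite and mixed sex samples. In comma embryos *lin-15B* had 24.8, 32.8 and 27.4 in N2 against 29.5, 32.2 and 29.0 in mixed sex, and no member was called, with 0.0683% of genes called and 0 members at an unadjusted p under 0.05. The 95% intervals of the members ran from −1.21 to 0.59 on the log2 scale. In L1 larvae 0 members and 0% of genes were called (0 members at an unadjusted p under 0.05), with intervals from −1.55 to 1.26. In L3 larvae 0 members and 0.0157% of genes were called, with 1 member at an unadjusted p under 0.05. That was *lin-54*, at 10.9, 10.1 and 10.8 in N2 against 12, 19 and 17.3 in mixed sex larvae, and without mixed sex L3 replicate 1 it was called lower, at −0.72 (SE 0.11, adjusted p = 0.0352).

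The fall of *lin-15B* between early and comma embryos was itself larger in hermaphrodites than in mixed sex embryos. The difference of the 2 log2 fold changes was −0.94 (SE 0.18, adjusted p = 0.0105), 1 of 10 members called where 1.75% of genes were called in that direction. In either direction 909 of 11656 genes were called. The *lin-15B* difference stayed called without any single library. These are the same early embryo libraries in which *lin-15B* differed between hermaphrodite and mixed sex samples, so this is not a separate measurement of that difference.

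Other early embryo genes also differed between the strains. The S phase and mitotic list had 4 of 14 higher in N2 (median 0.39), and the other synMuv B list 2 of 11, the histone methyltransferase gene *met-2* (0.50) and the Mi-2 gene *let-418* (0.44). The summed larval cuticle markers, which were higher in comma than in early embryos, were 25.2 to 49.4 in N2 against 218 to 351 in mixed sex early embryos, and *cki-1* was lower in N2 (log2 fold change −2.71). Their part in the *lin-15B* difference was not tested.

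**Figure D2:**
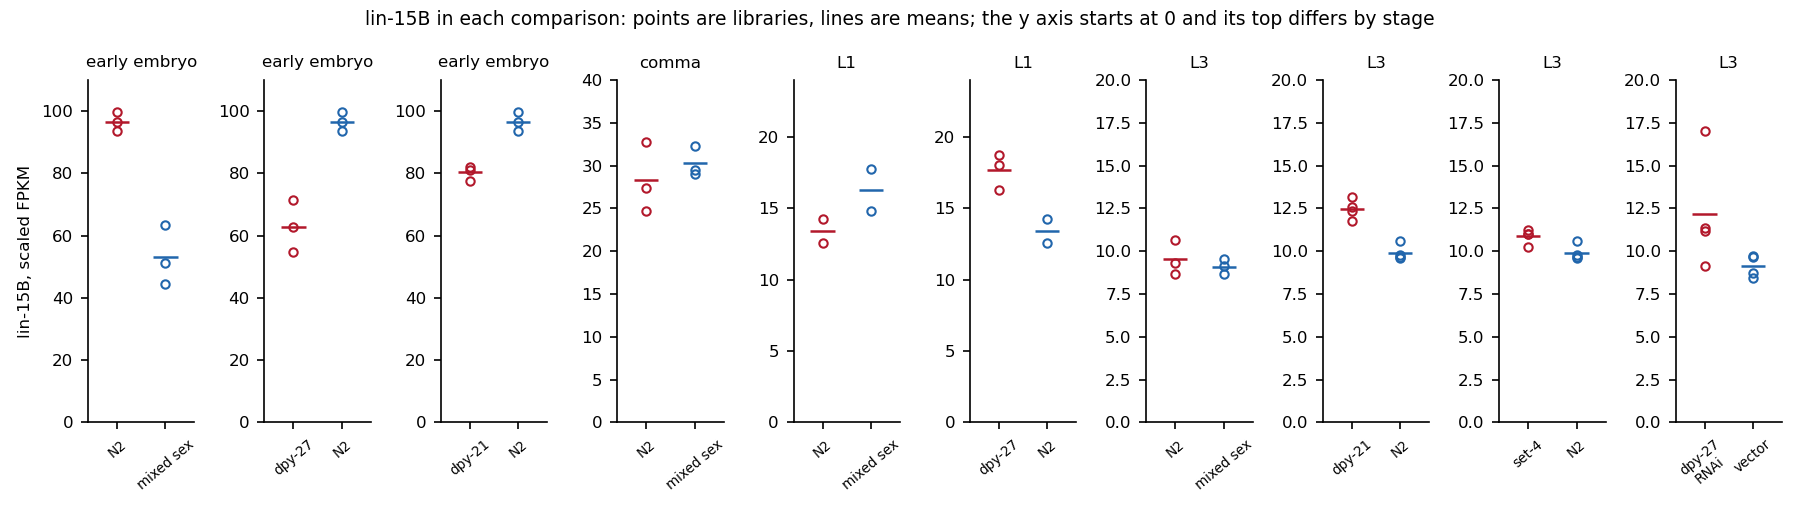
Scaled FPKM of *lin-15B* in 10 comparisons, 1 panel each on a linear axis from 0 whose top differs by stage; points are libraries and lines are means. N2 early embryos (93.6 to 99.9) lie above mixed sex early embryos (44.6 to 63.6), and *dpy-21(e428)* L3 larvae (11.7 to 13.1) above N2 L3 larvae of the second collection (9.60 to 10.6).

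Loss of *dpy-27* tests repression by the condensin of the complex. In *dpy-27(y56)* early embryos 6 members were lower than in N2, in a comparison where 48% of genes were called and 21.8% were called lower, and all 10 members had log2 fold changes below 0 (median −0.42, against −0.04 for all genes). *lin-53* had 408, 334 and 310 scaled FPKM in *dpy-27(y56)* embryos, against 622, 606 and 582 in N2. *lin-37* had 81.3, 68.4 and 50.0, against 113, 108 and 131 in N2. *lin-15B* had 71.3, 62.8 and 54.7, against 96.4, 99.9 and 93.6 in N2. The groups did not overlap for these 3 genes, and the share of all genes without overlap was not counted.

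The falls were 0.69 for *lin-53* (SE 0.14, adjusted p = 0.00548), 0.74 for *lin-37* (SE 0.19, adjusted p = 0.0147), 0.61 for *dpl-1* (SE 0.14, adjusted p = 0.00828), 0.52 for *lin-15B* (SE 0.13, adjusted p = 0.014), and 0.40 for both *efl-1* (SE 0.13, adjusted p = 0.0382) and *lin-54* (SE 0.11, adjusted p = 0.0212). *lin-15B* thus fell while the median of X-linked genes was 1.00 and that of autosomal genes −0.15. With no change of genotype, the X-linked median was 1.93 in N2 comma over early embryos. In *dpy-27(y56)* homozygous over heterozygous early embryos it was 0.25. The part of stage in the median of 1.00 was not tested. *lin-35* was not called, with 62.9, 47.9 and 69.8 in *dpy-27(y56)* against 66.5, 64.7 and 74.5 in N2 embryos. Leaving out single libraries gave 3 to 6 calls, with 3 without N2 early replicate 1 or replicate 3.

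The embryos of the strains differed in stage markers as well. Maternal transcripts summed to 1165 to 1591 in *dpy-27(y56)* against 2497 to 3718 in N2 early embryos, larval cuticle markers to 872 to 1327 against 25.2 to 49.4, and germline markers to 233 to 309 against 471 to 715. All 14 S phase and mitotic genes were lower (median −0.74), as were all 5 germline genes that synMuv B proteins keep off in the soma (median −1.25), while *cki-1* was higher by 3.37. The part of these markers in the members' fall was not tested. Against heterozygous embryos of the same strain, whose maternal sums were 1309 and 1705, 0 members and 0% of genes were called (0 members at an unadjusted p under 0.05), with 95% intervals from −1.41 to 1.49. That group had 2 libraries, which differed from each other: *lin-37* was at 89.8 and 31.2 and *lin-53* at 450 and 237.

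In *dpy-27(y56)* L1 larvae 0 members were called against N2, with 0.34% of genes called and 0 members at an unadjusted p under 0.05. *lin-15B* had 18.8, 18.0 and 16.3 scaled FPKM, against 14.2 and 12.6 in N2 L1 larvae. These did not overlap, but the log2 fold change of 0.38 had a 95% interval from −0.20 to 0.96.

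In *dpy-21(e428)* early embryos 0 members were called, with 6.02% of genes called, but 4 were at an unadjusted p under 0.05. *hpl-2* had 393, 343 and 366 scaled FPKM in *dpy-21(e428)* against 227, 249 and 278 in N2 embryos. *lin-53* had 299, 308 and 468 against 622, 606 and 582 in N2, and *lin-37* had 55.6, 66.6 and 84.4 against 113, 108 and 131 in N2. *lin-9* had 29.2, 35.6 and 37.1 against 46.7, 49.6 and 49.9 in N2. None of these 4 overlapped between groups, and their adjusted p ran from 0.051 to 0.0762. The share of all genes at an unadjusted p under 0.05, or without overlap, was not counted.

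These libraries deviated together by replicate number, and with the number as a block *lin-37* was called (−0.81, SE 0.15, adjusted p = 0.0385) and 1052 genes were called, against 580 without the block. Without *dpy-21(e428)* early replicate 3 all 4 were called: *hpl-2* at 0.52, *lin-53* at −1.02, *lin-37* at −0.97 and *lin-9* at −0.62. That library held 19.9 scaled FPKM of *dpy-21*, against 75.6 and 57.6 in the other 2 of its group and 70.3 to 75.0 in N2. Maternal marker sums were 1754 to 2451 in *dpy-21(e428)* against 2497 to 3718 in N2 early embryos, without overlap, and larval cuticle sums 68.4 to 1719 against 25.2 to 49.4. Their part in the members' values was not tested.

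In *dpy-21(e428)* L3 larvae 0 members were called against the second N2 collection, where 6.96% of genes were called. Only *lin-15B* had an unadjusted p under 0.05. It had 12.3, 13.1, 12.6 and 11.7 scaled FPKM in *dpy-21(e428)* against 9.60, 9.69, 9.79 and 10.6 in N2 larvae, with no overlap and an adjusted p of 0.0989. Its log2 fold change of 0.32 (SE 0.10) lay beside a median of 0.59 for X-linked genes and −0.08 for autosomal genes. *lin-15A* had 6.41 to 6.78 in *dpy-21(e428)* against 4.70 to 5.63 in N2 larvae. Of the G1 regulators, 2 of 7 rose, the cyclin D gene *cyd-1* (0.37) and its kinase gene *cdk-4* (0.73).

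The choice of N2 collection mattered. The second collection over the first gave 0 members called, with 8.77% of genes called and 3 members (*dpl-1*, *lin-9* and *lin-53*) lower at an unadjusted p under 0.05, while all 10 germline markers were lower (summed 103 to 131 in the second against 269 to 289 in the first collection). With the first collection as control, *dpy-21(e428)* L3 larvae had 4 members called, *dpl-1* (−0.46), *lin-9* (−0.37) and *lin-53* (−0.36) lower and *lin-15B* (0.31) higher.

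**Figure D3:**
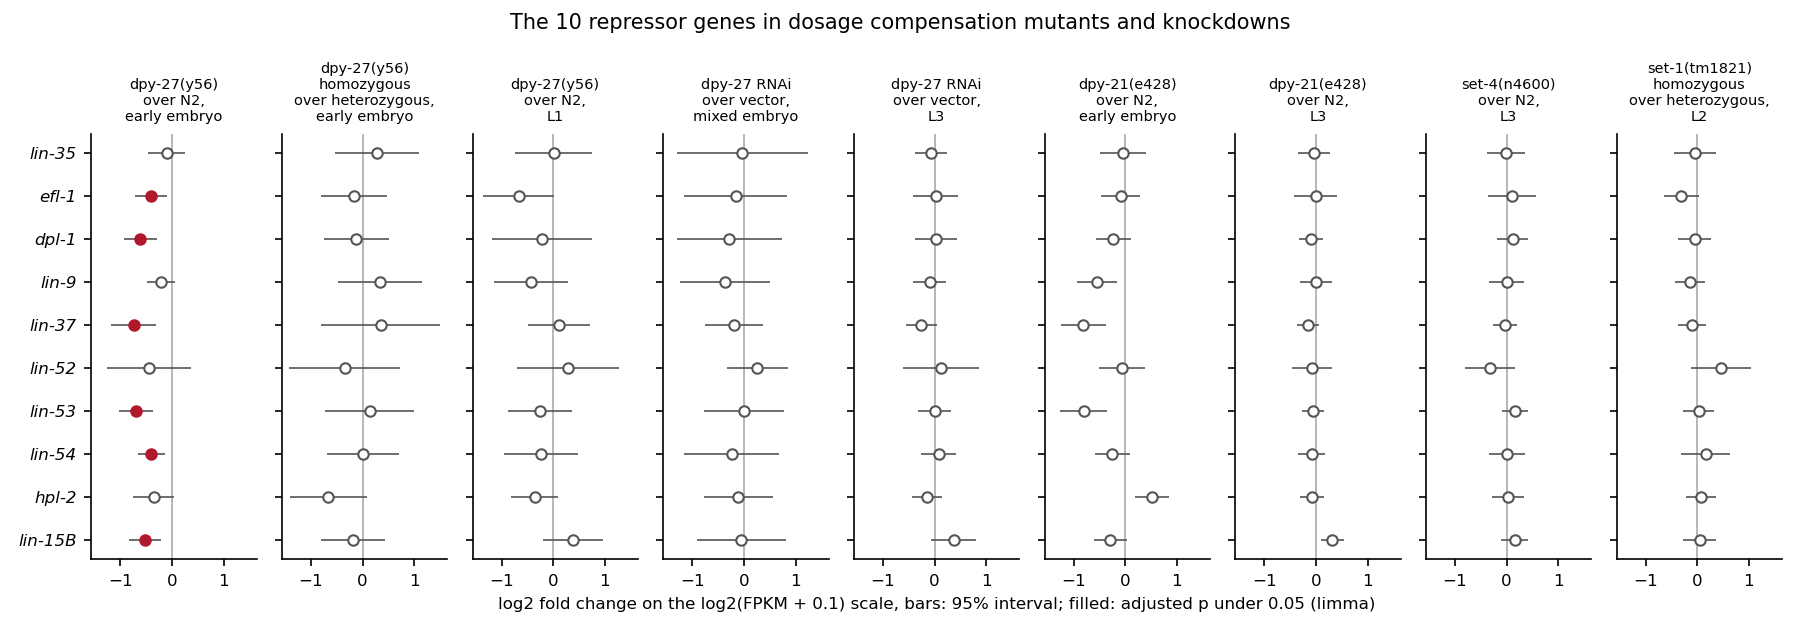
Log2 fold changes (points) with 95% intervals (bars) of the 10 repressor genes in 9 mutant or RNAi comparisons; filled points had a limma adjusted p under 0.05. The 6 filled points are all in *dpy-27(y56)* over N2 early embryos and lie below 0.

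The remaining larval comparisons gave no call among the members. In *set-4(n4600)* L3 larvae 0 members and 0.00801% of genes were called (0 members at an unadjusted p under 0.05), with 95% intervals from −0.80 to 0.56. *lin-15B* had 11, 11, 10.2 and 11.2 scaled FPKM in *set-4(n4600)* against 9.60, 9.69, 9.79 and 10.6 in N2 larvae, which overlapped. In *set-1(tm1821)* homozygotes over heterozygotes 0 members and 0.0156% of genes were called (0 members at an unadjusted p under 0.05), with intervals from −0.65 to 1.04. The level of *set-1* did not tell these groups apart (26.9 to 32.3 in homozygotes, 30.0 to 30.2 in heterozygotes), and the table's headers name both as L3 and do not mark the heterozygotes. *lin-15B* had 12.2, 13.3 and 12.2 in homozygotes against 13.1, 10.3 and 11.5 in heterozygotes. In *dpy-27* RNAi L3 larvae 0 members and 0.0313% of genes were called (0 members at an unadjusted p under 0.05), with intervals from −0.60 to 0.86. *lin-15B* had 9.16, 11.3, 11.2 and 17.0 with *dpy-27* RNAi against 8.74, 8.46, 9.64 and 9.73 with the vector. Replicate numbers were taken to pair the libraries in these 3 comparisons, from the data and not the labels. With them as a block 3, 0 and 233 genes were called, in the order given, and 0 members.

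Mixed stage embryos varied widely between libraries of the same group. *lin-35* had 33.5, 22.2, 113 and 33.5 scaled FPKM with *dpy-27* RNAi, against a lowest value of 20.9, a median of 38.7 and a highest value of 122 over 6 vector libraries. No member was called, nor was any gene (0 members at an unadjusted p under 0.05, 0% of genes called), and the members' intervals, without pairing, ran from −1.30 to 1.23. Part of the spread was shared by replicate number. Deviations of same-numbered RNAi and vector libraries correlated at 0.732, 0.925, 0.582 and 0.061 for replicates 1 to 4. With the number as a block, 0 members and 0 genes were called. Vector libraries also spread in maternal marker sums, from 328 to 2775, and RNAi libraries from 380 to 1113. For the difference of the RNAi effect, L3 larvae minus mixed embryos, 0 members and 0% of genes were called (0 members at an unadjusted p under 0.05), with intervals from −1.55 to 1.63.

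For *dpy-21(e428)* over *set-4(n4600)* mixed embryos, 0 members and 0% of genes were called (0 members at an unadjusted p under 0.05). *lin-35* had 33.0, 21.8, 21 and 23.7 in libraries labelled *dpy-21(e428)* against 32.4, 28.0, 22.8 and 18.7 in libraries labelled *set-4(n4600)*, and *lin-54* had 38.4, 68.3, 27.9 and 38.1 against 85.5, 35.2, 29.7 and 29.0. Both overlapped. Without the 2 libraries whose *set-4* level went against the label, 0 members and 4 genes were called.

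**Figure D4:**
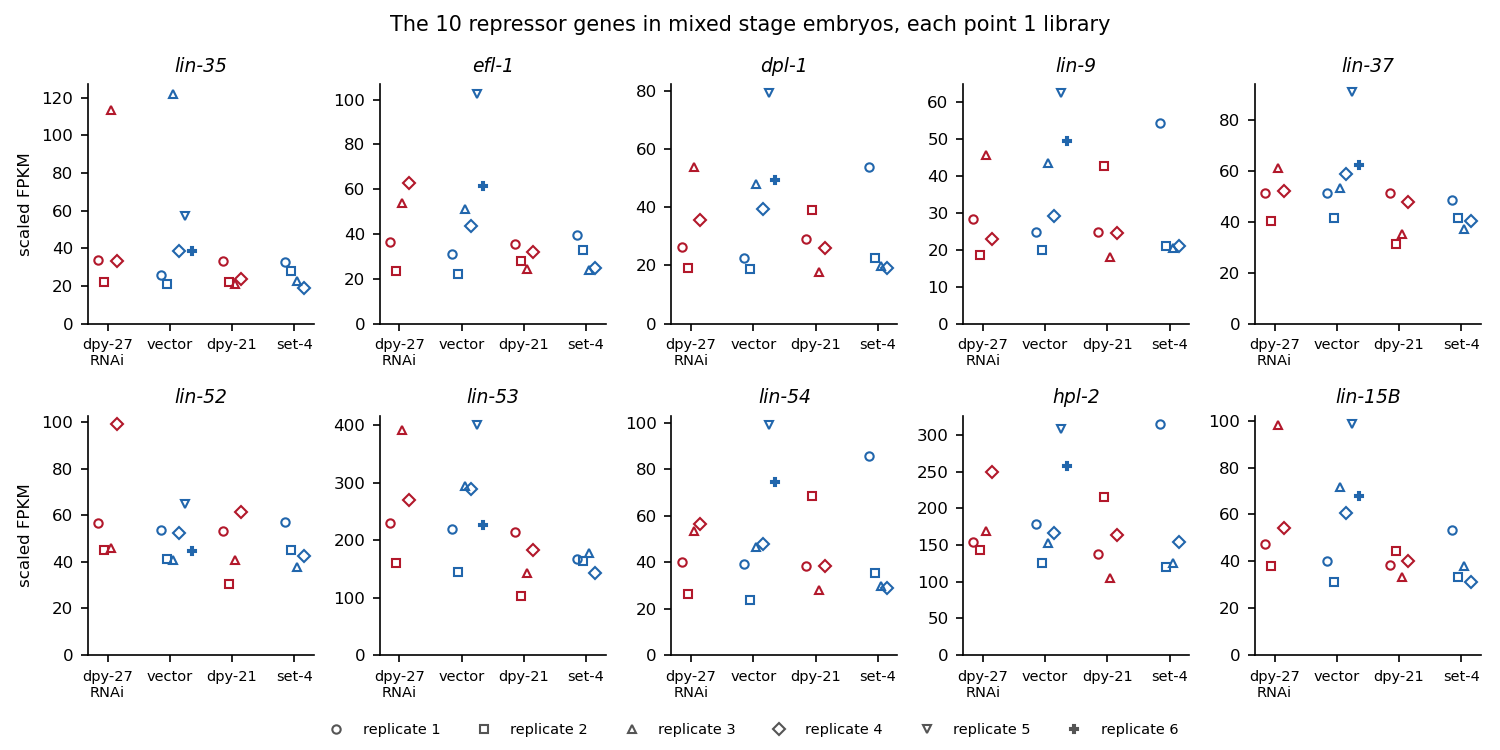
Scaled FPKM of the repressor genes in each mixed embryo library (linear axes from 0, a panel for each gene, symbols for replicate numbers), for *dpy-27* RNAi and vector and for the libraries labelled *dpy-21(e428)* and *set-4(n4600)*. *lin-35* stands at 113 in 1 RNAi library and 122 in 1 vector library, above the 20.9 to 57.2 of the rest of these 2 groups.

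The spike-in libraries ask whether total output per worm changed, since *C. elegans* counts are read against *C. briggsae* counts mixed in before extraction. In *set-4(n4600)* over N2 L1 larvae 3 members were called lower by edgeR's quasi-likelihood test, where 26.4% of genes were called and 20.9% called lower. *efl-1* had 13.6, 11.8 and 12.1 counts per 100000 *C. briggsae* counts in *set-4(n4600)* larvae, against 31.0, 24.6 and 26.3 in N2. *lin-53* had 94.4, 99.6 and 88.9, against 185, 168 and 141 in N2. *lin-54* had 12.7, 13.3 and 13, against 20.9, 27.1 and 18.0 in N2. None of the 3 overlapped, and the share of all genes without overlap was not counted.

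The log2 fold changes were −1.14 for *efl-1* (SE 0.25, adjusted p = 0.0031), −0.81 for *lin-53* (SE 0.16, adjusted p = 0.00169) and −0.75 for *lin-54* (SE 0.27, adjusted p = 0.0448). The median of all genes was −0.24 (X-linked 0.13, autosomal −0.31) and that of the members −0.49. The call of *lin-54* was lost under 8 of 10 alternatives, among them leaving out N2 replicate 2 (adjusted p = 0.156) or any 1 *set-4(n4600)* library, DESeq2 (adjusted p = 0.087) and scaling on *C. elegans* counts (−0.53, adjusted p = 0.132), under which *lin-15B* was called higher (0.43, adjusted p = 0.0146). *lin-15B* had 145, 135 and 131 in *set-4(n4600)* against 118, 116 and 116 in N2 larvae with the spike-in scaling, with no overlap but an adjusted p of 0.306. *lin-35* had 79.5, 61.9 and 61.2 against 66.6, 56.6 and 53.0 in N2, which overlapped. Of the lists, 10 of 14 S phase and mitotic genes fell (median −0.59), led by *mcm-7* (−0.83), and 5 of 11 other synMuv B genes, led by the MBT repeat gene *lin-61* (−0.97). Of 8 germline markers tested, 3 fell, *gld-1* (−1.38), *rec-8* (−1.18) and *pgl-1* (−0.89), and the 1 larval cuticle marker tested, *sqt-3*, fell as well (adjusted p = 0.025). Their part in the members' fall was not tested.

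**Figure D5:**
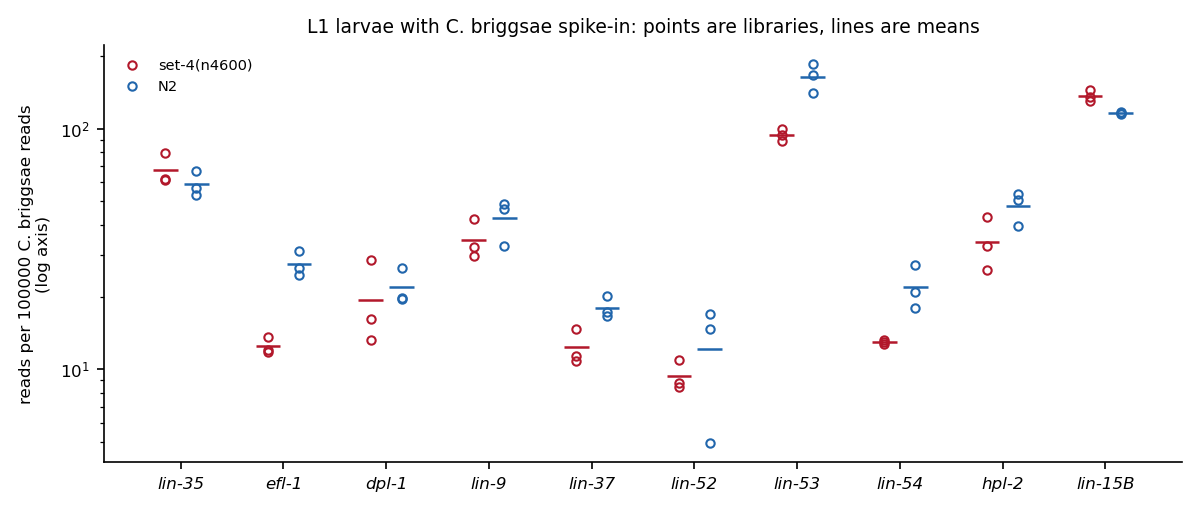
*C. elegans* counts of each repressor gene per 100000 *C. briggsae* counts (log axis) in the *set-4(n4600)* and N2 L1 spike-in libraries; points are libraries and lines are means. *efl-1* is at 11.8 to 13.6 in *set-4(n4600)* and 24.6 to 31.0 in N2 larvae, and *lin-15B* at 131 to 145 in *set-4(n4600)* and 116 to 118 in N2 larvae.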

How the data were processed

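The authors aligned reads with TopHat and made FPKM values with Cufflinks, and counted the spike-in reads per gene with htseq-count. The deposited FPKM table (20411 genes) gave 79 library columns, and 13 columns of no sample here were not used. Chromosomes were read from RefSeq's WBcel235 gene table by locus tag, and 78 genes were blank in some library. The deposited counts held 5 summary lines in the *C. briggsae* table (24.52 to 26.93% of its total), which were left out, and *C. elegans* totals were 1533531 to 3215078.

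FPKM are not counts, so each pair of groups was compared with limma 3.58.1 (R 4.3.3) on log2(FPKM + 0.1), genes with a mean above 1 FPKM, libraries scaled by the median of ratios, and Benjamini-Hochberg adjustment over all genes tested. Counts (mean of at least 10) were tested with edgeR 4.0.16, with library sizes from the *C. briggsae* counts, and DESeq2 1.42.0 as an alternative. The limma and edgeR fits were also run on simulated data with planted changes and independent libraries. Those data held no replicate pairing and no stage differences, so they do not bear on either. Replicates are separate libraries of pooled worms. The depth of the FPKM libraries is known only relative to each other, so no counting interval is given. Alternatives were a pseudocount of 1, no filter, no scaling, a replicate block, single libraries left out, the identical library kept, and the first N2 L3 collection as control.

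Replicate numbers were taken to pair libraries where every same-numbered pair's deviations from the group means correlated above 0.1: *dpy-27* RNAi L3 (0.137 to 0.635), *dpy-21(e428)* early embryos (0.166 to 0.218), *set-4(n4600)* L3 (0.267 to 0.697) and *set-1(tm1821)* (0.105 to 0.388). The *dpy-27* RNAi mixed embryos missed this rule through replicate 4 (0.061), though replicate 2 reached 0.925. The pairing was read from the data, not stated by the labels. Pairing was not exact: *set-4(n4600)* L3 replicate 2 correlated best with N2 replicate 3, and *dpy-27* RNAi L3 replicate 3 with vector replicate 4.

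The members and gene lists were chosen with earlier results of these data known. All members are described in every group, with a fold change where the adjusted p was under 0.05, and otherwise levels; intervals and fold changes of uncalled members were added after their values were seen. List genes are counted, naming up to 2 risers and 2 fallers.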

Additional observations from a re-analysis of the deposited data

Results flagged for a closer look

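In 7 of 90 sets of 4 to 10 libraries (7.78%), a member's highest or lowest library lay far from the rest, where chance alone would give about 1 in 20 groups. *lin-35* was at 113 scaled FPKM in *dpy-27* RNAi mixed embryo replicate 3, with the others at 22.2 to 33.5, and at 122 in vector mixed embryo replicate 3, with the others at 20.9 to 57.2. In the library labelled *set-4(n4600)* mixed embryo replicate 1, *dpl-1* was at 53.7 (others 19.1 to 22.4), *lin-9* at 54.4 (others 20.6 to 21.1) and *lin-54* at 85.5 (others 29.0 to 35.2), and the summed maternal markers were at 1379 (others 315 to 434). *efl-1* was at 5.58 in *dpy-27* RNAi L3 replicate 3 (others 8.60 to 8.90), and *lin-53* at 73.5 in *dpy-21(e428)* L3 replicate 1 (others 64.0 to 65.5). Between groups, the fall of *lin-15B* from early to comma embryos differed, by −0.94 on the log2 scale for hermaphrodite minus mixed sex (limma adjusted p = 0.0105).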

How the results depend on the processing

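The number of members called was within 1.5 times the reported number under 245 of 273 alternatives. A count of 0 that stayed at 0 is included among these, so the share says little about the called members. Direction was scored only for called fold changes, and none reversed under 466 alternatives. Of 46 called fold changes, 27 stayed called under every alternative run and 19 were lost under at least 1. Most of the 27 were the falls from early to comma embryos, all 10 in N2 and all 10 in mixed sex embryos. The rest were *lin-15B* from comma to L1 in both strains and in the difference of its early falls, *dpl-1* and *lin-53* in *dpy-27(y56)* early embryos, and *efl-1* and *lin-53* in the spike-in. Every other call was lost under at least 1 alternative. With single libraries left out, the number called was 0 to 1 for hermaphrodite over mixed sex early embryos and for L3 larvae, 2 to 5 for N2 L1 over comma, 0 to 3 for L3 over L1 in N2 and in mixed sex, 2 to 6 for mixed sex L1 over comma, 3 to 6 for *dpy-27(y56)* early embryos, 0 to 4 for *dpy-21(e428)* early embryos and 2 to 4 for the spike-in. The replicate block gave 5 for N2 L1 over comma, 0 for L3 over L1 in both strains, 4 for mixed sex L1 over comma and 1 for *dpy-21(e428)* early embryos. No scaling gave 4 for mixed sex L3 over L1 and 2 for *dpy-21(e428)* early embryos. No filter gave 1 for mixed sex L3 over L1, keeping the identical library gave 1 for N2 L3 over L1, and the first N2 L3 collection gave 4 for *dpy-21(e428)* L3. In that last case the genes called were 5464, against 878, and for *set-4(n4600)* L3 they were 342, against 1. No paired analysis was possible for L1 hermaphrodites over mixed sex because they share 1 number. Leaving out both libraries with the conflicting *set-4* level was chosen after seeing the data, as was leaving out replicate 3 of both the *dpy-27* RNAi and the vector mixed embryos; each gave 0 members called. The number of all genes called moved outside 1.5 times its reported value under 97 of 273 alternatives. Member levels depended on the scaling: without it, 139 of 230 group means moved by at least the SD of the group. Depth limits low genes most: *lin-52* had 8 counts in 1 spike-in library.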
